A study of Homo sapiens with 7 samples.

Results

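The genes described here are 9 components of transforming growth factor beta (TGF-beta) signalling, namely TGFBR1, TGFBR2, SMAD2, SMAD3, SMAD5, SMAD4, SMAD6, SMAD7 and SKI. They were taken by symbol from a table of 24721 gene symbols, where each of them had 1 transcript. The table lists N6-methyladenosine (m6A) peaks in the RNA of HepG2, by its label a line from a human liver cancer. The low expression of several hepatocyte genes, given at the end of the Results, goes against this label, though the liver genes CPS1 and C3 were high. The series held 4 m6A-immunoprecipitated (m6A-IP) libraries made with an anti-m6A antibody and 3 input libraries without antibody. All 7 came from untreated cells grown in DMEM with serum, and their polyadenylated RNA was cut into pieces of about 100 nt before precipitation. The table has no column for any library, and which libraries gave its values is not stated, so there is no value per library, no replicate error and no test of IP against input. Library depth is unknown, and every value below is a description of this table.

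TGF-beta family ligands bring a type II and a type I receptor kinase together, and the type I receptor then phosphorylates receptor-regulated SMAD proteins. These join the common SMAD, SMAD4, and enter the nucleus to regulate transcription. Inhibitory SMADs and the corepressor SKI restrain the pathway. In liver the pathway is known for limiting hepatocyte growth and for driving fibrosis. m6A is laid down by a nuclear methyltransferase complex, mostly in long exons and near stop codons, at the consensus RRACH, where R is A or G and H is A, C or T.

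All 9 genes had at least 1 listed peak, in a table where 29.1% of all genes did (7200 of 24721, 95% Wilson interval 28.6 to 29.7%). Of 6004 coding genes with an expression quantile within 0.02 of one of the 9 genes, 64.7% had a peak. The expression quantile is the authors' rank of a transcript, a fraction between 0 and 1. It was 0.913 for SMAD6, 0.888 for SKI, 0.866 for SMAD3, 0.835 for TGFBR2, 0.803 for SMAD7, 0.718 for SMAD2, 0.621 for SMAD4, 0.618 for SMAD5 and 0.601 for TGFBR1. Without replicates the order of neighbours in this series cannot be tested. The median was 0.803, against 0.595 for all coding genes and 0.799 for all genes with a peak.

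**Figure D1:**
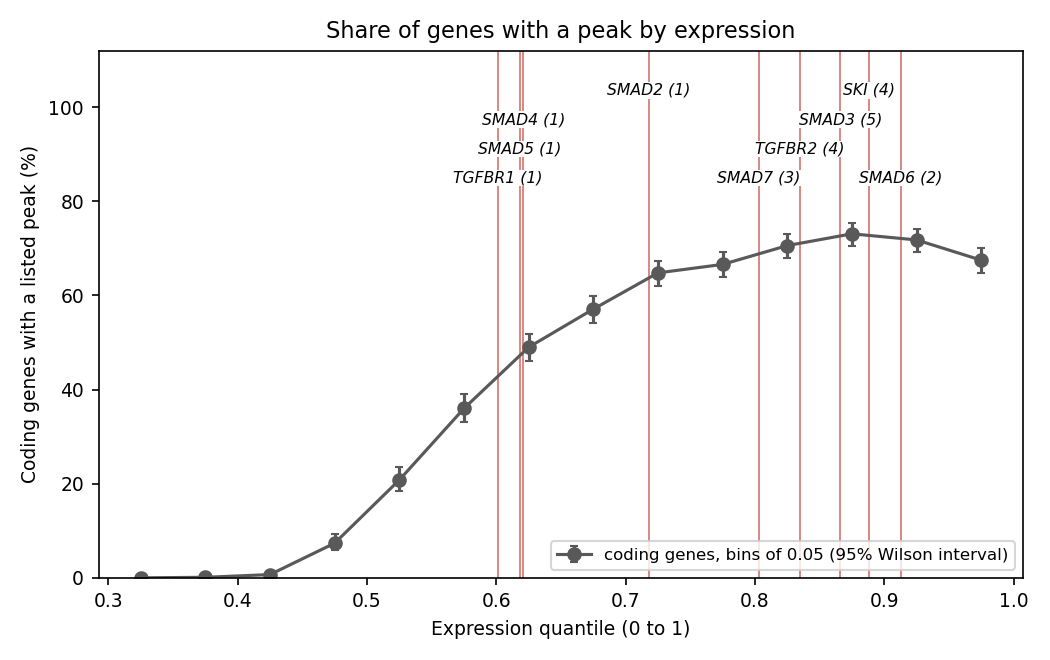
Share of coding genes with a listed peak (percent) in bins of 0.05 of the expression quantile, with 95% Wilson intervals that cover counting error only. Red lines mark the 9 genes, with their number of peaks in brackets; the 4 on the left have 1 peak each, and all 9 lie where 49.0% or more of the genes in the bin have a peak.

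The 9 genes carried 22 peaks. SMAD3 had 5, TGFBR2 and SKI had 4 each, SMAD7 had 3, SMAD6 had 2, and SMAD2, SMAD4, SMAD5 and TGFBR1 had 1 each. The median was 2.00 peaks per gene, against 1.00 for all genes with a peak. The 4 genes with the lowest expression quantiles thus had 4 peaks and the other 5 had 18. Genes with 4 or more peaks were 3 of the 9, against 7.69% of all genes with a peak. What the number of reads and transcript length contribute to these counts was not tested.

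The authors' peak score, whose scale is not stated, ran from 2.00 to 7.91 over the table. The highest score of each gene was 6.68 for SMAD2, 4.18 for TGFBR2, 4.04 for SKI, 3.90 for SMAD7, 3.78 for SMAD3, 3.61 for SMAD6, 3.14 for SMAD5, 2.26 for SMAD4 and 2.20 for TGFBR1. SMAD2 stood 2.50 above the next gene. The median of these was 3.78, against 3.56 over all genes with a peak, and 6 of the 9 lay above that value. Over single peaks the median was 3.06 for the 9 genes and 3.15 for the whole table.

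**Figure D2:**
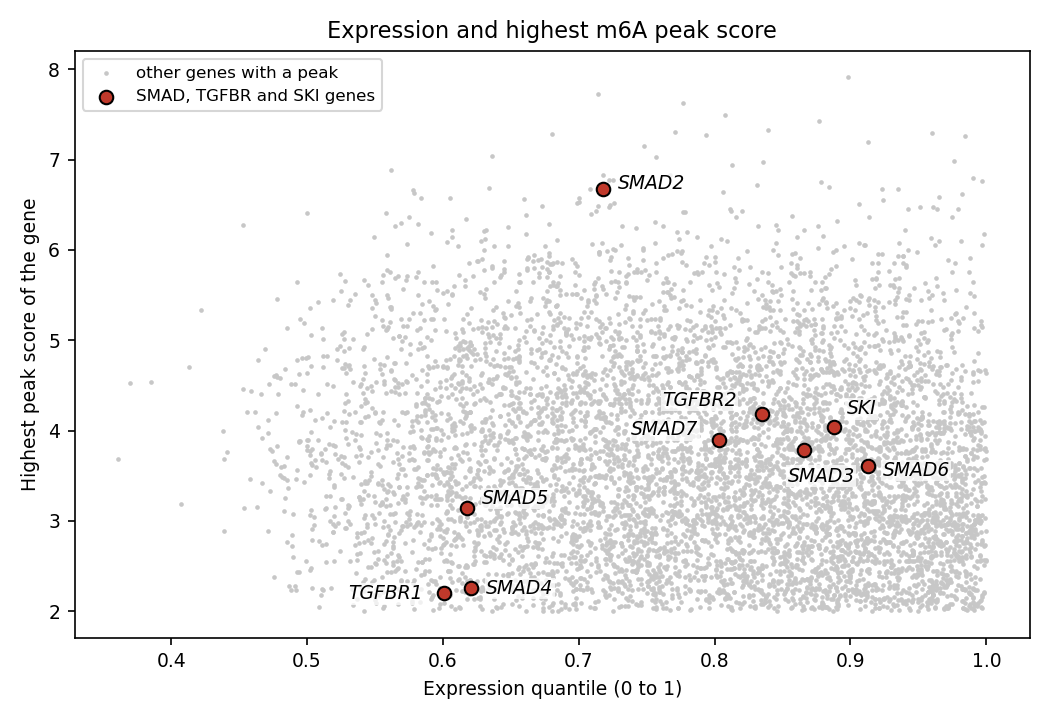
Highest peak score of each gene (authors' score, scale not stated) against its expression quantile, for the 9 genes (red) and all other genes with a peak (grey). SMAD2 lies near the top at 6.68, TGFBR1 and SMAD4 near the bottom at 2.20 and 2.26, and the other 6 between 3.14 and 4.18.

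By the authors' segments, 8 of the 22 peaks lay in the coding sequence, 8 in the 3' UTR, 5 around the stop codon and 1 within 200 nt of the transcript start. The coding share was 36.4%, against 36.6% of all peaks with a segment. The 3' UTR share was 36.4% against 20.5%, the stop codon share 22.7% against 27.6%, and the transcript start share 4.55% against 12.5%. All 8 of the 3' UTR peaks belonged to SMAD3 and SKI, so the larger 3' UTR share comes from 2 genes. Peaks lay in long exons: 21 of 22 were in exons of at least 400 nt, against 84.6% of all peaks, and the exception was SMAD4, in an exon of 376 nt.

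Sequence was read from GENCODE release 29 transcripts, on which 8 of the 9 genes could be placed by exon number and exon length. For these 8 genes the authors' segments and those rebuilt from GENCODE were the same at 21 of 21 peaks. Segments are broad, so this does not check the placement to within a few nt. RRACH was found within 50 nt of 17 of the 21 peaks (81.0%), on the transcript strand. The share was 89.5% for 8737 peaks placed in the same way across the table, and 75.1% for every 10th position along their transcripts. The order of the 21 peaks and the table's peaks turned with the window. Within 25 nt the shares were 76.2% for the 21 peaks and 73.0% for the table's peaks, and within 100 nt they were 100% and 96.5%. All 4 peaks without RRACH belonged to the inhibitory SMADs, the 3 peaks of SMAD7 and the start peak of SMAD6. GGACT, a form of RRACH frequent near m6A peaks, was near 2 of the 21 peaks (9.52%), against 28.3% of placed peaks in the table and 9.93% of every 10th position. The 8 transcripts held 554 RRACH in all, of which 38 (6.86%) lay within 50 nt of a listed peak.

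**Figure D3:**
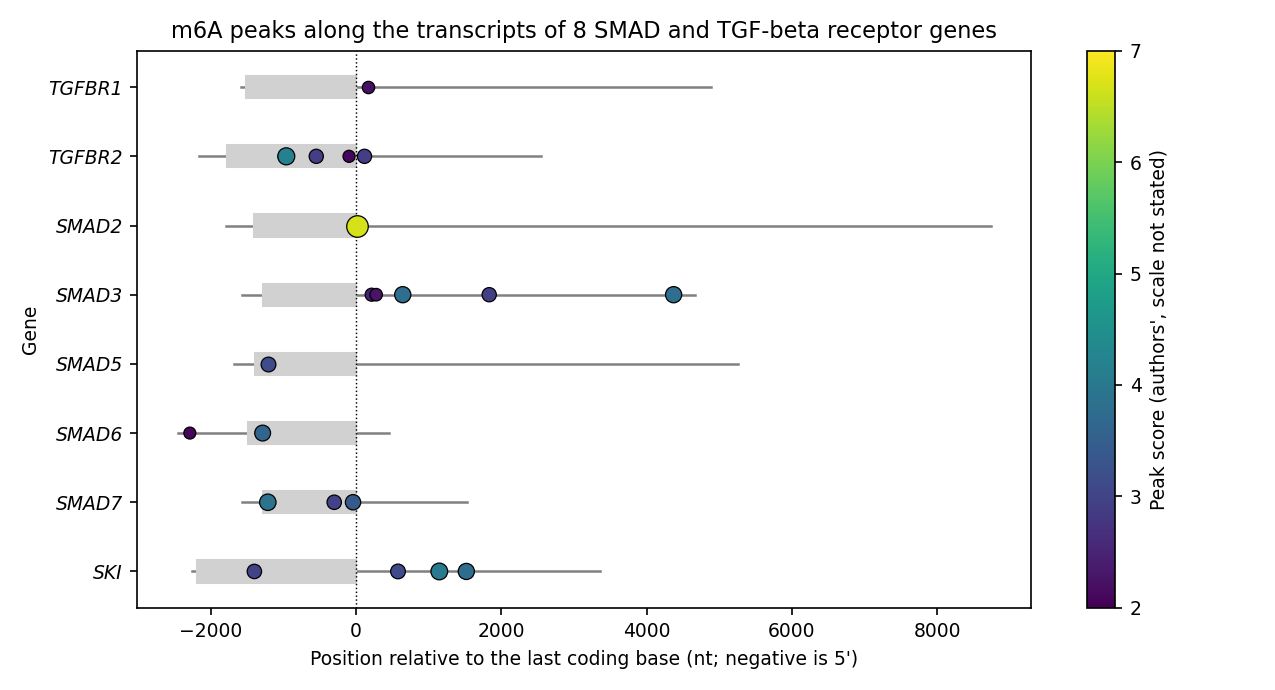
Peaks along the transcripts of the 8 genes placed on GENCODE, in nt from the last coding base (negative values are 5'); grey boxes are coding sequence, thin lines UTRs, and circles peaks with size and colour by score. SMAD2 has its only peak at the stop codon, SMAD3 has all 5 peaks in the 3' UTR, and SMAD5, SMAD6 and SMAD7 each have a peak early in the coding sequence.

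The receptors differed from each other in peak number. TGFBR2, the type II receptor that binds the ligand (chromosome 3, 30622998 to 30710637, plus strand), had 4 peaks. These lay at position 1199, with a score of 4.18, and position 1612, with 2.90, both in the coding part of exon 5 (800 nt). The other 2 lay at positions 2063 and 2276 of exon 8, the last (2722 nt), scored 2.10 and 2.91 and were assigned to the stop codon. They flank it, the first 95 nt before and the second 118 nt after the last coding base. Among 696 coding genes with a peak and an expression quantile within 0.02 of TGFBR2, 10.2% had at least 4 peaks.

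TGFBR1, the type I receptor kinase (chromosome 9, 100907233 to 100956294, plus strand), had 1 peak at position 1754 in its last exon (exon 9, 5012 nt). It lay 169 nt after the last coding base and scored 2.20, so 97.0% of the 399 genes with a peak and like expression had a score at least as high. The remainder of its 3' UTR, which is 4886 nt long, held no listed peak. TGFBR1 fitted 2 GENCODE transcripts, and its distances are those on the one used. On these placements, which were not checked to within a few nt, both receptors had GGACN within 3 nt of the highest-scoring peak. The sites are shown because they lie nearest to those peaks, with RRACH in capitals.
TGFBR2: gcccattgagctGGACAccctggtgggga
TGFBR1: caggatttctttGGACCcaggaaacagcc
The first is in the coding sequence at chr3:30671909-30671937 and the second in the 3' UTR at chr9:99149454-99149482, both on the plus strand of GRCh38.

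SMAD2 and SMAD3 both carry signals from the TGF-beta and activin receptors, and their marks were laid out differently. SMAD2 (chromosome 18, 43613464 to 43711510, minus strand) had 1 peak, at position 1807 of exon 11, which is 11 nt after the last coding base. Its score of 6.68 ranked 31st of 7200 genes with a peak. Of 607 genes with a peak and like expression, 5 (0.824%) had a score at least as high. The peak lay in the longest exon that carried any of the 22 peaks (8856 nt), and the 8732 nt of 3' UTR held no other. The transcript held 125 RRACH, 6 of them within 200 nt of the last coding base, and 1 lay within 50 nt of the peak.

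SMAD3 (chromosome 15, 65145249 to 65274587, plus strand) had 5 peaks, all in the 3' UTR part of exon 9 (4783 nt) and none around the stop codon. They lay 216, 278, 644, 1834 and 4372 nt after the last coding base, and scored 2.45, 2.26, 3.78, 2.92 and 3.78 in that order. The first 2 were 62 nt apart, less than the fragment length of about 100 nt, so whether they are separate sites cannot be told. The highest-scoring one is at position 2217 and the one scoring nearly the same is at position 5945. RRACH lay within 13 nt of all 5. Of 734 genes with a peak and like expression, 35 (4.77%) had 5 or more peaks. The SMAD3 transcript held 7 RRACH within 200 nt of the last coding base, against 6 in SMAD2.

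The sites nearest to the SMAD2 peak and to the 2 highest SMAD3 peaks are given, with RRACH in capitals. All 3 are in the 3' UTR.
SMAD2: agtcccatgaaaAGACTtaatgtaacaac
SMAD3, position 2217: gcgtgttcagcaGAACCtgcacacaggac
SMAD3, position 5945: ctcggctgttctGGACTctgatgtgtgtg
The A of the SMAD2 motif lies 21 nt downstream of the peak position, at chr18:47841784-47841812 on the minus strand of GRCh38. The SMAD3 sites lie 2 nt upstream and 11 nt downstream of their peaks, at chr15:67191161-67191189 and chr15:67194902-67194930 on the plus strand. No GGACT lay within 50 nt of the SMAD2 peak, although the transcript held 8.

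SMAD5, a receptor-regulated SMAD of the bone morphogenetic protein (BMP) branch (chromosome 5, 135496435 to 135546321, plus strand), had 1 peak. It lay at position 467 of exon 2 (572 nt), 181 nt after the start of the coding sequence, and scored 3.14. No peak was listed around its stop codon or in its 3' UTR of 5253 nt. Its close relative SMAD1, a member of the wider pathway list, had a peak at a like place, 221 nt after the start of the coding sequence, with a score of 4.36. SMAD1 also had a peak 72 nt after the last coding base, with a score of 3.67, which SMAD5 lacked.

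The site nearest to the SMAD5 peak is set beside its best ungapped match in the coding sequence of SMAD1, with the same 5 positions in capitals.
SMAD5: ttgagcagtccaGGACAgccgagtaaatg
SMAD1: ttgagctgcccaGGGCAaccgagtaactg
The sites are at chr5:136153926-136153954 and chr4:145514776-145514804 of GRCh38, both on the plus strand, and 24 of 29 bases are identical. SMAD5 has RRACH there and SMAD1 does not. In SMAD1 the nearest RRACH to its own peak is a GGACT 24 nt downstream of it. The window of 50 nt on either side of the SMAD5 peak was 82.4% identical to SMAD1, the closest match among the 21 windows, and how the authors assigned reads shared by related genes is not given in the sources used here.

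SMAD4, the common partner of the receptor-regulated SMADs (chromosome 18, 46810581 to 46865409, plus strand), had 1 peak with a score of 2.26. It lay at position 307 in the coding part of exon 3 (376 nt). None of the 3 complete GENCODE transcripts of SMAD4 met the conditions for placement, so the position could not be placed. An exon of the same length is exon 2 of a GENCODE SMAD4 transcript, and its 249 nt of coding sequence hold 4 RRACH and no GGACT. Of 437 genes with a peak and like expression, 94.3% had a score at least as high.

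Both inhibitory SMADs had a peak in the first exon, early in the coding sequence. SMAD6, which mainly restrains BMP signals (chromosome 15, 64781688 to 64861380, plus strand), had one at position 1167 of exon 1 (1780 nt), 203 nt after the start of the coding sequence, with a score of 3.61. Its second peak, at position 165, scored 2.06 and was the only one of the 22 assigned to the transcript start. SMAD7, which blocks the activated type I receptor (chromosome 18, 44700221 to 44731079, minus strand), had its highest peak at position 352 of exon 1 (900 nt), 64 nt after the start of the coding sequence, with a score of 3.90. Its other peaks lay in exon 4, at positions 1266 and 1525, and scored 2.99 and 3.39. They were 299 and 40 nt before the last coding base, the second of them assigned to the stop codon. SMAD6 had no listed peak around its stop codon.

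With SMAD5, these make 3 of the 7 placed coding sequence peaks within 250 nt after the start of the coding sequence. The share among all 2721 placed coding sequence peaks was 12.3%. The limit of 250 nt was chosen after the distances were seen. SMAD7 fitted 2 GENCODE transcripts, and on the one used none of its 3 peaks had RRACH within 50 nt. The nearest lay 55, 64 and 59 nt away, in the order of the positions. The SMAD7 transcript had 1.04 RRACH per 100 nt, and that of SMAD6 0.722, the lowest of the 8 genes, which reached 1.42 in TGFBR1. The windows around the 2 SMAD7 peaks of exon 4 were 75.6% and 80.7% identical to SMAD6 over 90 and 88 aligned nt. The window around its highest peak was 78.3% identical to BCL11B over 69 aligned nt, and the other 17 windows had no match to another gene. The SMAD6 site below is shown as the motif nearest to its coding sequence peak, 15 nt downstream of it.
SMAD6: cgggacgcagtgGGACAgcgaggcgccca
It lies in the coding sequence at chr15:66703463-66703491 on the plus strand of GRCh38.

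SKI, a corepressor that binds SMAD complexes on DNA (chromosome 1, 2149994 to 2231416, plus strand), had 4 peaks. The coding one lay at position 858 of exon 1 (1041 nt) and scored 2.99. The 3 in the 3' UTR part of exon 7 (3541 nt) lay 579, 1147 and 1519 nt after the last coding base and scored 3.12, 4.04 and 3.76. None lay around the stop codon, where 4 RRACH were found within 200 nt of the last coding base. SKI thus shared with SMAD3 several peaks in a long 3' UTR and none at the stop codon. Of 747 genes with a peak and like expression, 8.57% had at least 4 peaks. The motif nearest to its highest peak and the GGACT near its coding peak, 40 nt upstream of it, are shown.
SKI, position 3403: aatgcaaaaactGAACTtcgggggtcgtt
SKI, position 858: catccagtgcctGGACTgccgcctcatgt
They lie at chr1:2307884-2307912, in the 3' UTR, and at chr1:2229498-2229526, in the coding sequence, both on the plus strand of GRCh38.

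Peaks were also counted over 118 other genes of the pathway, in 6 lists by role. In all, 62 of them had a peak (52.5%), against 29.1% of all genes. Leaving out the 17 at the lowest expression quantile, the share was 61.4% (62 of 101), against 46.4% of coding genes above that quantile. Other SMADs and corepressors had peaks in 7 of 8, with TGIF1, a SMAD corepressor, at a highest score of 4.72, SMAD1 at 4.36 and TGIF2 at 4.26, while SMAD9, at a quantile of 0.484, had none. Regulators of receptors and SMADs had them in 18 of 24, led by the ubiquitin ligases XIAP (6.66), TRAF6 (6.41) and RNF111 (4.78), and not in STRAP, a receptor-binding protein with a quantile of 0.944. Target genes had them in 11 of 19, led by the cell cycle inhibitor CDKN2B (4.48), the matricellular protein CTGF (4.36) and the transcription factor BHLHE40 (4.02), and not in CDKN1A (quantile 0.859).

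The other 3 lists hold genes that act at the cell surface or outside the cell. Other receptors and coreceptors had them in 7 of 15, with the activin type I receptor ACVR1B at 6.40, the pseudoreceptor BAMBI at 4.90 and the coreceptor ENG at 4.88, and not in the coreceptor TGFBR3 (quantile 0.742). Extracellular regulators had them in 9 of 20, with the protease FURIN at 5.60, the integrin subunit ITGB8 at 5.51 and THBS1, an activator of latent TGF-beta, at 4.38, and not in LTBP4 (quantile 0.922). Ligands had them in 10 of 32, with the inhibin subunits INHBE (4.82) and INHBB (4.35) and with BMP6 (4.21), and not in AMH (quantile 0.914). Of the 32 ligands 11 were at the lowest quantile of the table (0.314), and of the other 21, 47.6% had a peak. Leaving out such genes, 7 of 14 receptors and coreceptors and 9 of 15 extracellular regulators had a peak. Of all coding genes above that quantile 46.4% had a peak, so ligands and receptors stood close to this share. No gene of the other 3 lists was at the lowest quantile. The lists' median expression quantiles were 0.444 for ligands, 0.577 for receptors, 0.648 for extracellular regulators, 0.673 for SMADs and corepressors, 0.740 for regulators and 0.803 for targets. Against coding genes in the bin of 0.05 that holds its median, the target list was lower (11 of 19 against 70.6%). SMADs and corepressors (7 of 8 against 57.1%) and regulators (18 of 24 against 64.8%) were higher. The bin of the median is not a share at like expression, because each list spreads over many bins. Target genes ran from 0.378 (PTHLH) to 0.998 (JUNB). SMADs and corepressors ran from 0.484 (SMAD9) to 0.885 (TGIF1), and regulators from 0.531 (ZFYVE16) to 0.978 (STUB1). Whether a list differs from genes of like expression was not tested. The medians of the remaining lists include genes at the lowest quantile. What expression contributes to the counts was not tested.

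**Figure D4:**
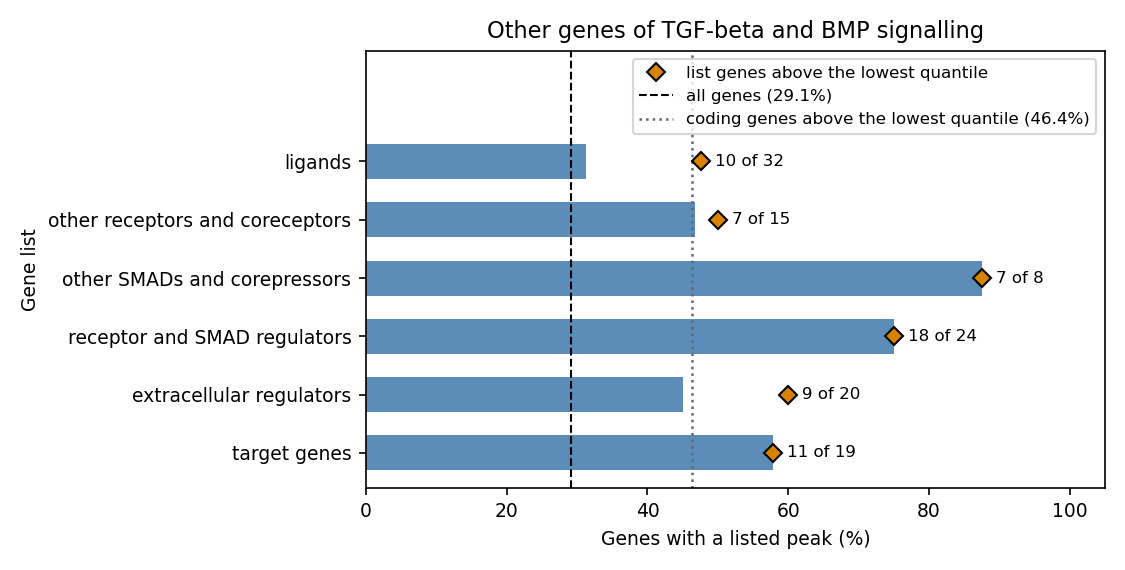
Percent of genes with a listed peak in 6 lists of TGF-beta and BMP signalling. Bars give the share of all genes of a list, with counts, to be read against the dashed line of all genes of the table (29.1%), and diamonds the share of those above the lowest expression quantile, to be read against the dotted line of coding genes above it (46.4%); other SMADs and corepressors (7 of 8) and regulators (18 of 24) lie highest.

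The labelled cell type was checked against genes of hepatocytes. ALB, AFP, TTR, SERPINA1 and APOB were all at the lowest quantile of the table, 0.314, and APOA1 was at 0.403, HNF4A at 0.509 and FGB at 0.619. None of these 8 had a peak, and neither did any of the 5254 coding genes with a quantile from 0.3 to 0.35. HepG2 cells are known for secreting plasma proteins, so these expression values go against the label. Not every liver gene was low: the urea cycle enzyme CPS1 was at 0.990 and the plasma protein C3 at 0.960. The identity of the cells behind this table rests on the labels alone.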

How the data were processed

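Per the labels' protocols, polyadenylated RNA was cut to about 100 nt and immunoprecipitated, and fragments of about 200 bp were amplified with 15 PCR cycles. Not given in the sources used here are the aligner, the peak caller and the build. The authors' table holds, per the file headers, an expression quantile (a fraction), the authors' peak score, and each peak's number, position, exon and segment. Depth is unknown, and p-values were not computed. Table coordinates are as deposited, with starts counted from 1.

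Coding transcripts were placed on GENCODE release 29 (GRCh38) by symbol, chromosome, strand and peak exons of equal number and length within 2 nt. First and last exons could differ. For a first-exon peak, positions were moved by the difference in that exon. For a last-exon peak, they were moved by the difference in genomic span less that in the last exon. The span includes introns, so a change of intron length between builds would move positions. Where only inner exons held peaks, the spans also had to be equal within 2 nt. These rules placed 4934 of 6990 transcripts. Of 500 simulated transcripts with trimmed ends all 500 were placed, 93.0% of them at the true sequence. Since many of the table's transcripts could not be placed, the simulation was an easier case. The 93.0% is therefore not the accuracy of the placements used here, which was not measured. Motifs were searched on the transcript strand within 50 nt, around peaks and around every 10th position of the placed transcripts. Window similarity used BLAST 2.17.0, and shares have 95% Wilson intervals (Python 3.11.15, SciPy 1.17.1). Counting error only is covered.

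Named genes are the 9 members and, per list, the 3 highest scores and the most expressed gene without a peak. SMAD1's other values and the hepatocyte genes were chosen after values were seen. Members and lists were chosen with earlier results of these data known. In the lists, 2 genes were found under older symbols.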

Additional observations from a re-analysis of the deposited data

How the results depend on the processing

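Of 21 alternative settings, 11 moved a value by less than its counting interval, the spread over genes or 1.5 times, and 10 moved it further. With a score of at least 3, 7 of the 9 genes kept a peak, and with at least 4, 3 did. The share of all genes with a peak was then 20.1% and 10.5%. It was 35.6% among coding genes, 46.4% among those above the lowest quantile and 64.7% among those of like expression. Of the 118 pathway genes, 61.4% of those above the lowest quantile had a peak. RRACH lay within 100 nt of 100% of the 21 placed peaks, against 96.5% of the table's placed peaks and 93.0% of every 10th position, and within 25 nt of 76.2%, against 73.0% and 51.3%. Within 50 nt the 21 peaks were lower than the table's peaks. GGACT alone gave 9.52%. Transcripts with spans equal within 10 nt left SKI and SMAD5, with RRACH at 100% of 5 peaks, and none had exactly equal spans. Moving positions by 10 nt, an alternative chosen after seeing the data, gave 85.7% and 90.5%. No paired analysis was possible because the table has no value per library, and no library could be left out for the same reason. Whether genes of low expression lack peaks for want of reads cannot be told from these values.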
